A study of Homo sapiens with 2 samples.

Results

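The genes described here encode subunits of respiratory chain complexes I to IV, read on 1 Affymetrix array of SB-OG cells and 1 of control-OG cells. The set was chosen by gene name and holds 57 genes. Of these, 51 were among the 19775 genes on the arrays with a probe set named for them alone, 100 probe sets in all. The background level was taken from gene families assumed silent in these cells, and 50 of the 51 were above it on at least 1 array. NDUFA4, NDUFS5, NDUFS8, SDHB, UQCRFS1 and UQCRH had no such probe set and have no value here. COX7A1 had a probe set that was under background on both arrays. SB-OG cells came from the human embryonic stem cell line HUES9 at passage 32, grown for 10 days as floating embryoid bodies with SB-431542 at 10 µM and then as an adherent outgrowth on fibronectin with SB-431542 at 1 µM. SB-431542 blocks the kinases ALK5, ALK4 and ALK7, through which TGF-β, activin and nodal signal. Control-OG cells came from the same line and passed through the same stages with the solvent DMSO at 0.01% in place of the inhibitor. The labels do not state how much DMSO the SB-OG cultures received. Both were taken at outgrowth passage 5 in a chemically defined medium, and 3 samples of each were mixed before RNA was read, so n = 1 per condition and no difference below can be checked against replicates or given a p-value. HUES9 is a single line, and results from it need not hold for other lines.

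The respiratory chain sits in the inner mitochondrial membrane. Complex I (NADH dehydrogenase) and complex II (succinate dehydrogenase) pass electrons to ubiquinone, complex III hands them on to cytochrome c, and complex IV (cytochrome c oxidase) gives them to oxygen. Complexes I, III and IV pump protons as they do so, and ATP synthase uses the gradient. The genes of the set are nuclear, and most are used in most cells. Subunits encoded in mitochondrial DNA are not among them. COX6A2 and COX7A1 encode forms of complex IV subunits found mainly in heart and skeletal muscle. There they stand in for the widely used COX6A1 and COX7A2.

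Promoter sequences were looked up for the genes furthest apart between the arrays in each direction, COX6A2 and NDUFA7, and for COX6A1, the paralogue of COX6A2. They are shown because they belong to the contrast between isoforms and to the gene furthest below control-OG. Each runs from 250 bases before to 50 bases after the annotated start (RefSeq, GRCh38.p14), 5′ to 3′ along the gene, with motif matches in capitals.
COX6A2, chr16:31428311-31428610, minus strand: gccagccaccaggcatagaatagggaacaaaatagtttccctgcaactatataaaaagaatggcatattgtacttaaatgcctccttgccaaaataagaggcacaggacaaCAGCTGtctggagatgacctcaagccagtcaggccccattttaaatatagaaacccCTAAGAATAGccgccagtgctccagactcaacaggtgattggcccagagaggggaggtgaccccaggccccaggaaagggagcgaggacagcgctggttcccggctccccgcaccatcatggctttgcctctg
COX6A1, chr12:120437863-120438162, plus strand: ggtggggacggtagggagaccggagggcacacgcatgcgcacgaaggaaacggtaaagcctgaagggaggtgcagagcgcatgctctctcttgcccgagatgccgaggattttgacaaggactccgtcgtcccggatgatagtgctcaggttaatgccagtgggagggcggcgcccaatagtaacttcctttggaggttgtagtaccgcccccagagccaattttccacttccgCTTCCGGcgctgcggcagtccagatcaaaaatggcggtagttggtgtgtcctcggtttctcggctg
NDUFA7, chr19:8321326-8321625, minus strand: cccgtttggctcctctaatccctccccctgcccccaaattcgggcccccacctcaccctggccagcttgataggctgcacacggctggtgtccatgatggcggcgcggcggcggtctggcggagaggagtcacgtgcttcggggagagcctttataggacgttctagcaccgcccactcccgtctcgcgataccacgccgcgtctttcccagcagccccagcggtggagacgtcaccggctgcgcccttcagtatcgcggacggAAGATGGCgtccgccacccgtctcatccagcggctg
Motifs were searched on both strands by their letters: the NRF1 motif, the MEF2 motif, CCGGAAG for ETS factors such as GABP, AAGATGGC for YY1, TCAAGGTCA for estrogen-related receptors, and CAGCTG as an E-box of the kind myogenic factors bind. The letters of the MEF2 match are those in the second run of capitals for COX6A2. The COX6A2 window held an E-box whose first base lay at position -139 and a MEF2 match at -83, and none of the other motifs. The COX6A1 window held only an ETS match, at -16, and the NDUFA7 window only a YY1 match, at 15, past the start. No 2 matches in these windows overlapped. Of 47 members in the promoter table, COX6A2 alone had a MEF2 match (2.13%), and 2.30% of 15843 promoters of protein-coding genes had one. COX7A1 is not among the 47 and its promoter was not analysed here. E-box matches were found in 10 of the 47 (21.3%), against 17.7% of all. ETS matches were found in 14 (29.8%), against 14.2% of all, NRF1 matches in 9 (19.1%), against 8.58%, and YY1 matches in 8 (17.02%), against 3.91%. A match for estrogen-related receptors was found in SDHD alone (2.13%), against 0.24% of all. A match describes the letters of the window and does not show that a factor binds there.

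Respiratory chain subunits were close to each other on the SB-OG and control-OG arrays, with COX6A2 and NDUFA7 as the 2 genes more than 2-fold apart. In SB-OG, COX6A2 was higher by a factor of at least 4.28, and NDUFA7, an accessory subunit of complex I, was 2.50-fold lower. That is 1 of 50 members past 2-fold in each direction. Among the 12559 genes that passed background on either array, the shares past 2-fold were 12.4% upward and 13% downward, and among the brightest 25% of them 7.55% and 13.2%. At a limit of 1.5-fold, 5 members were higher (22.3% of all genes, 17.5% of the brightest) and 1 was lower (23.3% of all genes, 23.7% of the brightest). The remaining 44 members, 88.0% of the 50, lay within 1.5-fold, against 54.3% of all genes and 58.9% of the brightest 25%. These shares hold for the arrays as deposited, and with rescaling on hybridisation controls the members' median was 0.60, itself past 1.5-fold. The brightest 25% reached down to intensities of 81.1 on SB-OG and 50.2 on control-OG and were not matched to the members in brightness. The part of brightness in these shares was not tested. COX6A2 counts among the 50 only through its SB-OG signal and so had to differ.

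Differences are log2 intensity of SB-OG minus that of control-OG, taken from the brightest probe set of each gene. The median over the 50 members was 0.13, with an SD between genes of 0.46 and a range of -1.32 to 2.10. The median over all genes was -0.02 with an SD of 1.22, and that of the brightest 25% was -0.04. Differences above the median of all genes were found for 36 of the 50 members, against 50% of all genes by construction and 49% of the brightest 25%. For scale, differences from several probe sets of one gene varied with an SD of 0.47 over 4954 genes on these arrays. The arrays share one average level as deposited. Rescaling SB-OG on its hybridisation controls would add 0.47 to every difference, the median of all genes included, and differences are best read against that median. After this rescaling, 6 of the 50 members were at least 2-fold higher and none was 2-fold lower. Of 12559 genes, 3020 were then at least 2-fold higher and 911 lower. It left 49 members positive, all but NDUFA7, where 35 were so as deposited. Of the genes at least 2-fold apart 76.8% were then higher in SB-OG, against 48.8% as deposited.

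**Figure D1:**
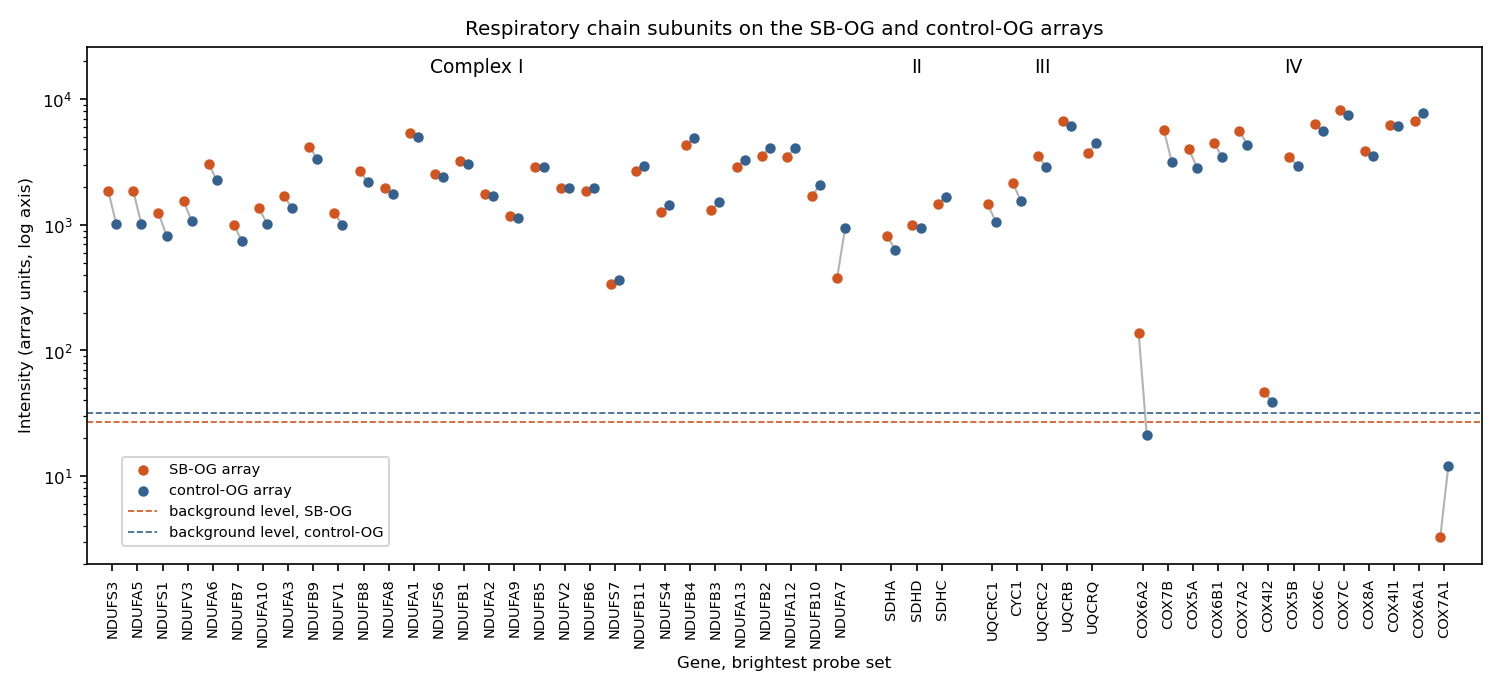
Intensity of the brightest probe set of 51 respiratory chain genes on the SB-OG array (orange) and the control-OG array (blue), on a log axis, ordered within each complex by the difference, with dashed lines for the background level of each array. Most pairs of points lie close together, COX6A2 and NDUFA7 are apart, and COX7A1 lies under both lines. Levels of different genes are not comparable, since probe sets differ in brightness.

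The samples were mixtures of whole cultures, so fewer cells of a type and less RNA per cell cannot be told apart. The background level was 27.2 on SB-OG and 32.1 on control-OG. The marker lists were chosen with earlier results of these data known, so their counts describe the cultures and are not a test. Of the skeletal muscle markers, 10 of 10 were past 2-fold upward in SB-OG, against 12.4% of all genes. Their intensities summed to 57196 on SB-OG and 412 on control-OG. Fibroblast markers were at least 2-fold lower for 6 of 6, against 13% of all genes, with sums of 18283 on SB-OG and 54505.5 on control-OG. Of 4 epithelial markers above background, KRT8, KRT18 and KRT19 were at least 2-fold lower and CDH1 was at least 2.58-fold higher, EPCAM was under background, and the sums were 449.6 on SB-OG and 16515 on control-OG. Of 7 cardiac markers with a probe set, NKX2-5, TBX5, MYL2, MYL7 and TNNI3 were under background on both arrays, NPPA reached 50.2 on SB-OG and NPPB 37.7 on control-OG, and the sums were 140 on SB-OG and 129 on control-OG. Of 6 brown fat markers, 5 were under background on both arrays, UCP1 and CIDEA among them, PRDM16 was at 29.7 on SB-OG, and the sums were 61.5 on SB-OG and 48.3 on control-OG. Of 5 pluripotency markers with a probe set, SOX2 alone was above background, at 147 on SB-OG and 14.2 on control-OG, and its other probe set was at 33.3 on SB-OG and 35.0 on control-OG. The ratio of 3′ to 5′ signal in the probe sets for GAPDH was 0.958 on SB-OG and 0.995 on control-OG, and in those for ACTB 1.55 on SB-OG and 1.65 on control-OG. The part of cell makeup and of RNA quality in any result here was not tested.

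COX6A2, the muscle form of a small complex IV subunit, had an intensity of 137 on SB-OG and 21.4 on control-OG. The control-OG signal was under background, so its difference of 2.10 is a lower bound, and the bound was 1.40 with background at the 99th percentile. COX6A1, the form used in most tissues, had 6650.1 on SB-OG and 7705 on control-OG, a difference of -0.21 that turned positive with quantile normalization and with the hybridisation controls. The difference of COX6A2 exceeded that of COX6A1 by at least 2.31. COX6A2 was read by 1 probe set, as was COX7A1.

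COX7A1, the muscle form of another small complex IV subunit, had an intensity of 3.28 on SB-OG and 11.9 on control-OG. Both were under background, so COX7A1 has no fold and could not be set against COX6A2. It was under background under each alternative tried. COX7A2, its widely used counterpart, had 5598 on SB-OG and 4352 on control-OG, 1.29-fold higher in SB-OG. COX4I2, a form of subunit 4 found mainly in lung, was just above background at 46.4 on SB-OG and 38.8 on control-OG. COX4I1, the common form, had 6252 on SB-OG and 6154 on control-OG. Among these isoforms and their counterparts that have a difference, then, COX6A2 was the gene more than 2-fold apart.

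Other muscle genes, of energy supply and of calcium pumping, were read beside the isoforms. The muscle creatine kinase gene CKM had 4785 on SB-OG and 2.15 on control-OG, at least 149-fold higher, and the calcium pump gene ATP2A1 had 922 on SB-OG and 3.18 on control-OG, at least 28.7-fold higher. MB, which encodes the oxygen-binding protein myoglobin, was near background at 50.4 on SB-OG and 28.5 on control-OG, at least 1.57-fold higher. CKMT2, the creatine kinase of muscle mitochondria, was at 34.9 on SB-OG and 6.96 on control-OG, and SLC25A4, the ADP/ATP carrier of muscle and heart, was at 892 on SB-OG and 588 on control-OG. CKM and ATP2A1 were thus far apart, while MB and CKMT2 were little above background. CKM is also one of the skeletal muscle markers counted above. CKMT2 and SLC25A4 were named after their values were seen.

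Complex IV without the muscle isoforms had a median difference of 0.24 over 11 genes, from -0.21 to 0.85, and 10 of the 11 lay above the median of all genes. COX7B, a small subunit, was the furthest, with 5677 on SB-OG and 3150.2 on control-OG, 1.80-fold higher, and it passed 2-fold with quantile normalization, with the lowess correction, with the hybridisation controls and with the mean of its probe sets. Its dimmer probe set gave 179 on SB-OG and 47.0 on control-OG, a difference of 1.93. COX5A, a subunit on the matrix side, had 3987 on SB-OG and 2857 on control-OG, 1.40-fold higher, and its dimmer probe set gave 99.99 on SB-OG and 32.5 on control-OG, a difference of 1.62, so that the mean over its probe sets was past 2-fold. COX5B, COX6B1, COX6C, COX7C and COX8A lay between 0.12 and 0.38. A dim probe set of COX5B, at 19.0 on SB-OG and 44.5 on control-OG, went the other way.

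Complex I had a median of 0.08 over 30 genes, from -1.32 to 0.88, with 19 of the 30 above the median of all genes. The SD between its genes was 0.42, and 0.32 without NDUFA7, against 0.27 for complex IV without the muscle isoforms. The NDUFS and NDUFV genes, which include the subunits that hold the flavin and the iron-sulphur clusters, had a median of 0.20 over 8 genes. NDUFS3, a core subunit of the part that reduces quinone, had 1868 on SB-OG and 1015 on control-OG, 1.84-fold higher. NDUFS1, the large iron-sulphur subunit, had 1239 on SB-OG and 821 on control-OG, 1.51-fold higher, and further probe sets gave 0.14 to 0.48. NDUFV1, which binds NADH and the flavin, differed by 0.31, NDUFV2 by -0.01 and the iron-sulphur subunit NDUFS7 by -0.10.

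NDUFV3, an accessory subunit at the tip of the matrix arm, could not be settled. Its brightest probe set gave 1550.01 on SB-OG and 1065 on control-OG, a difference of 0.54, and the other gave 110 on SB-OG and 152 on control-OG, a difference of -0.47. The 2 probe sets thus point opposite ways.

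The NDUFA genes, accessory subunits of complex I, held its lowest value and its second highest. NDUFA5, an accessory subunit of the same part of the enzyme as NDUFS3, had 1852 on SB-OG and 1011 on control-OG, 1.83-fold higher. NDUFA7, an accessory subunit of the matrix arm, had 377 on SB-OG and 941 on control-OG, 2.50-fold lower, a difference of -1.32 that was -0.85 with the hybridisation controls. NDUFA7 was read by 1 probe set, its other being under background on both arrays. The other 9 NDUFA genes lay between -0.23 (NDUFA12) and 0.44 (NDUFA6), and the median of all 11 was 0.11. A dimmer probe set of NDUFA6 gave 587 on SB-OG and 309 on control-OG, a difference of 0.92.

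The NDUFB genes, subunits of the membrane arm, had the smallest SD among the groups of subunits in the set, at 0.25. All 11 lay within 1.5-fold by the brightest probe set, between -0.28 and 0.43, with a median of -0.09. That median was 0.02 with quantile normalization, 0.01 with a lowess correction, 0.05 with probe sets specific by name and 0.38 with the hybridisation controls. NDUFB2 had probe sets of both signs, -0.21 by the brightest and 0.08 and 0.35 by dimmer ones. Dimmer probe sets of NDUFB8 gave 0.53 and 0.02. NDUFB10 was the lowest, with 1698 on SB-OG and 2064 on control-OG, and its dimmer probe set gave -0.61. NDUFB7, the highest, had 1002 on SB-OG and 741 on control-OG. NDUFB5 lay in between at 2894 on SB-OG and 2884 on control-OG. NDUFB2, NDUFB5, NDUFB7 and NDUFB8 were named after their values were seen.

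**Figure D2:**
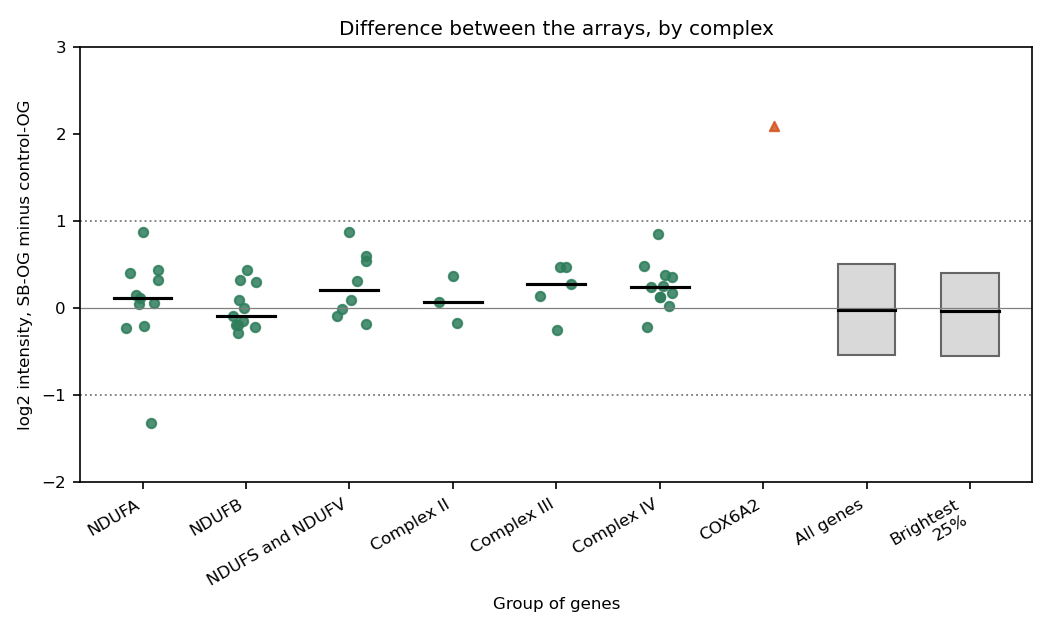
Difference in log2 intensity, SB-OG minus control-OG, for each respiratory chain gene above background (points), by group, with the median as a black line; the triangle for COX6A2 is a lower bound, boxes give the middle quartiles of all genes and of the brightest 25%, and dotted lines mark 2-fold. Group medians lie between -0.09 and 0.28, and NDUFA7 and COX6A2 lie outside the dotted lines.

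Complex II was read by 3 of its 4 genes, with a median of 0.07. SDHA, the catalytic subunit that carries the flavin, had 811 on SB-OG and 629 on control-OG, and it was read by a probe set whose name marks possible cross-hybridisation. The membrane anchor gene SDHD had 993 on SB-OG and 946 on control-OG. SDHC, the other anchor, had 1474 on SB-OG and 1659 on control-OG, a difference of -0.17, and its other probe sets above background on both arrays ranged from -0.26 to 0.97. SDHC has no settled sign, since it also turned positive with the hybridisation controls and with the mean of all its probe sets.

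Complex III had a median of 0.28 over 5 of its 7 genes, from -0.25 to 0.47. UQCRC1, a core protein on the matrix side, had 1454 on SB-OG and 1048 on control-OG, 1.39-fold higher. CYC1, which encodes cytochrome c1, the subunit that reduces cytochrome c, had 2134 on SB-OG and 1541 on control-OG, 1.38-fold higher. UQCRQ, a small subunit, was the lowest, with 3748 on SB-OG and 4444 on control-OG, and its difference of -0.25 turned positive with the hybridisation controls. UQCRB, another small subunit, had 6665 on SB-OG and 6063 on control-OG, a difference of 0.14, and its other probe sets above background on both arrays gave 0.81 and 0.92. UQCRC2, the second core protein, gave 0.28 by its brightest probe set and 0.78 by a dimmer one.

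Where a subunit was read by several probe sets, these often gave different sizes. For 14 members at least 2 probe sets were above background on both arrays. Their signs were mixed in 3 of the 14 (21.4%), against 32.8% of 4954 genes with such probe sets. In 9 of the 14 the median of the dimmer ones exceeded the brightest, by a median of 0.36 over all 14. Over the 4954 genes this held for 54.2%, with a median of 0.05. The 40 probe sets of members that are specific by name and above background on both arrays had a median of 0.34 over 34 genes, and the 35 whose names mark shared sequence had a median of 0.14 over 26 genes. The sizes printed for COX5A, COX7B and UQCRB are thus the smallest of those measured above background on both arrays.

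**Figure D3:**
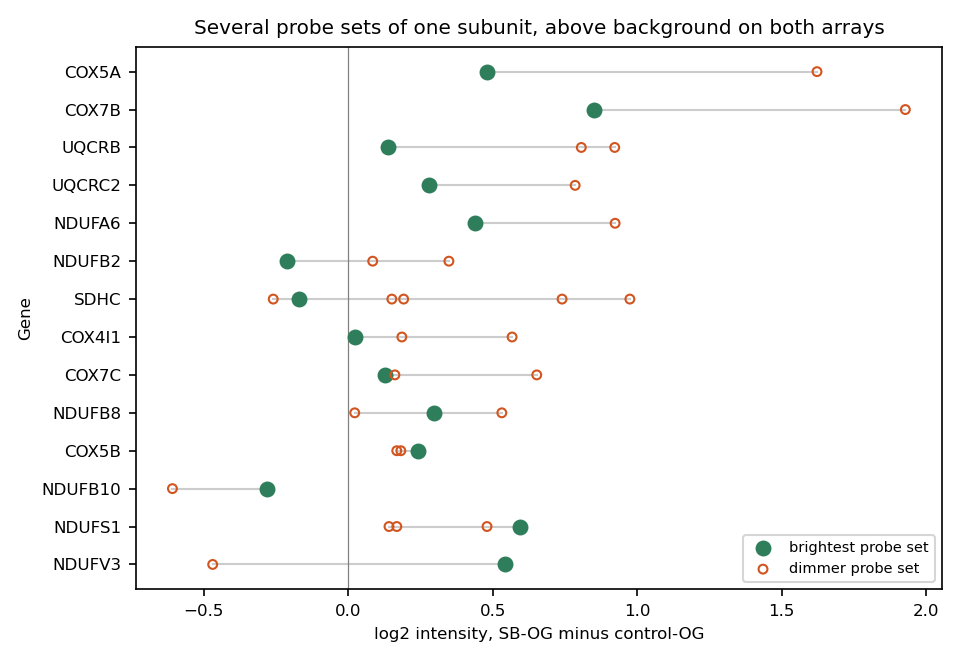
Difference in log2 intensity, SB-OG minus control-OG, for each probe set above background on both arrays, for the 14 respiratory chain genes with at least 2 such probe sets; large green points are the brightest probe set of a gene and small orange circles the dimmer ones. COX5A and COX7B have dimmer probe sets at 1.62 and 1.93, and NDUFV3 has probe sets of opposite sign.

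Genes that build, run beside or regulate the chain were read from lists of pathway members. ATP synthase, which makes ATP from the proton gradient, had 18 of 19 genes above background with a median of 0.23, none of them 2-fold apart, and 3 at least 1.5-fold higher, against 22.3% of all genes and 17.5% of the brightest 25%. These were the genes ATP5MC1, ATP5MC2 and ATP5MC3, which all encode the membrane ring subunit c. ATP5MC3 had 5607 on SB-OG and 3445 on control-OG, 1.63-fold higher, ATP5MC1 was 1.56-fold and ATP5MC2 1.503-fold higher, and other probe sets of ATP5MC3 read 5214 on SB-OG and 3211 on control-OG, and 368 on SB-OG and 129.96 on control-OG. The 7 further subunits and partners of complexes I to IV that were above background had a median of 0.04, and CYCS, which encodes cytochrome c, was at 5650.2 on SB-OG and 3891 on control-OG. CYCS was named after its value was seen.

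Assembly factors, which build the complexes and do not stay in them, had larger SDs than the subunits. The SD was 0.61 over 17 factors of complex I, 0.89 over 10 of complexes II and III and 0.68 over 20 of complex IV, against 0.46 over the subunits. Over all genes it was 1.22. The assembly factors were also dimmer, with highest SB-OG intensities of 1926, 701 and 1849 in the same order, against 8142 among the subunits. The part of brightness in these SDs was not tested. For complex I, FOXRED1 had 210.01 on SB-OG and 85.5 on control-OG, 2.46-fold higher, and NDUFAF1 had 297 on SB-OG and 604 on control-OG, 2.03-fold lower. NDUFAF2 was 1.79-fold lower. For complex II, SDHAF3 had 154 on SB-OG and 35.3 on control-OG, 4.37-fold higher. Its control-OG value was near background, and its difference of 2.13 was 1.57 with background at the 99th percentile. SDHAF1 had 152 on SB-OG and 330.3 on control-OG, 2.18-fold lower, with another probe set at -0.33. LYRM7, a factor of complex III, was 2.58-fold higher, further probe sets gave 0.22 to 0.69, and the mean of all its probe sets was 0.63, short of 2-fold. With the hybridisation controls NDUFAF1 was at -0.55, SDHAF1 at -0.65 and COX19, a factor of complex IV, at -0.67, none of them 2-fold lower. In each of these lists some factors were higher and others lower.

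Past 2-fold, 3 of 20 assembly factors of complex IV were higher in SB-OG and 2 lower, close to the 12.4% and 13% of all genes. At 1.5-fold, 8 of the 20 were higher, against 22.3% of all genes, and 3 were lower, against 23.3%. SCO1, a copper chaperone, had 1072 on SB-OG and 507 on control-OG, 2.12-fold higher. COA7 was 2.501-fold higher, with another probe set at 0.39, and COA4 was 2.11-fold higher. COX19, which takes part in copper delivery, had 45.6 on SB-OG and 101 on control-OG, 2.21-fold lower. That difference of -1.14 was -0.40 with background at the 99th percentile and -0.84 with the mean of its probe sets, and its other probe set was at 17.4 on SB-OG, under background, and 39.3 on control-OG. SURF1, mutated in a form of Leigh syndrome, had 702 on SB-OG and 1482 on control-OG, 2.11-fold lower. COA4 and SURF1 were named after their values were seen.

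Of 16 regulators of mitochondrial genes above background, 2 were at least 2-fold higher, against 12.4% of all genes, and none was 2-fold lower, against 13%. Their median was 0.33. At 1.5-fold, 6 of the 16 were higher, against 22.3% of all genes, and 2 were lower, against 23.3%. The 2 lower ones were PPRC1, 1.56-fold lower, and PPARA, 1.54-fold lower. PPRC1 and PPARA were named after their values were seen. GABPA, the DNA-binding part of the ETS factor GABP, had 246 on SB-OG and 84.4 on control-OG, 2.91-fold higher, with another probe set at 0.50. PPARGC1B, a coactivator of mitochondrial genes, had 105 on SB-OG and 13.2 on control-OG, at least 3.27-fold higher, with another probe set at 0.17, and the mean of its probe sets was 0.94, short of 2-fold. PPARGC1A, its relative in muscle and brown fat, was close to background at 38.6 on SB-OG and 11.8 on control-OG. TFAM, which packages and transcribes mitochondrial DNA, had 387 on SB-OG and 202 on control-OG, 1.91-fold higher, and its other probe sets gave 0.75 to 1.42. ESRRA, an estrogen-related receptor, had 173 on SB-OG and 112 on control-OG, 1.55-fold higher, with another probe set at 0.88. NRF1 had 112 on SB-OG and 89.7 on control-OG, a difference of 0.33, and its other probe sets ranged from -0.92 to 1.20, so its sign is not settled.

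**Figure D4:**
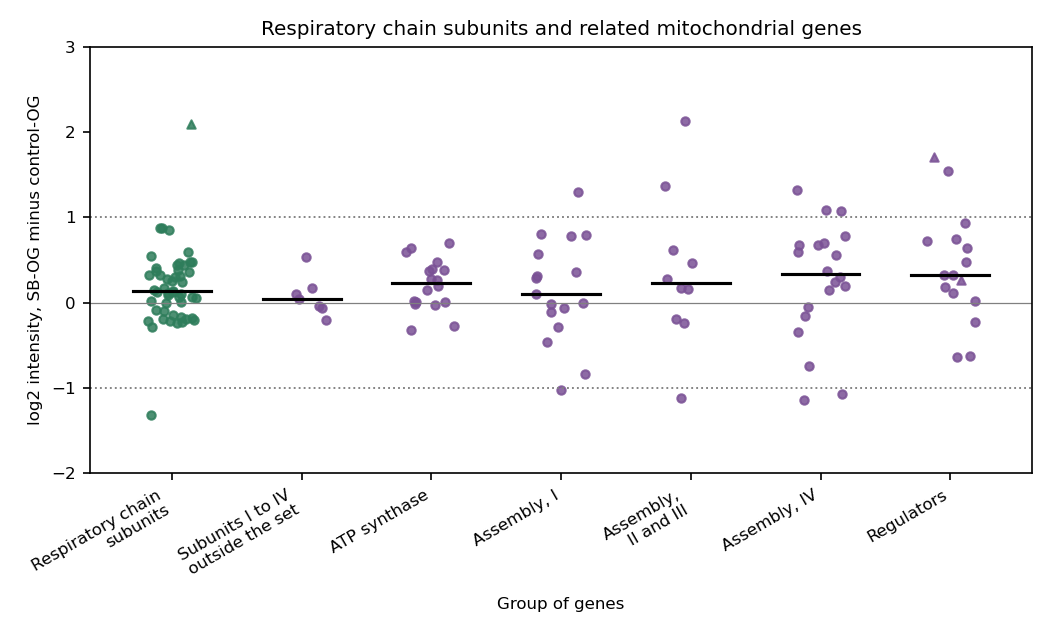
Difference in log2 intensity, SB-OG minus control-OG, for the respiratory chain subunits (green) and for 6 lists of related genes (purple) above background, with medians as black lines, 2-fold as dotted lines and lower bounds as triangles. Subunits lie close around their median of 0.13, apart from NDUFA7 and COX6A2, while assembly factors reach from -1.14 to 2.13.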

How the data were processed

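RNA of 1 mixture of 3 samples per condition was biotin-labelled and read on Affymetrix arrays, per the labels. The authors deposited a linear intensity for each of 54675 probe sets per array (summarising program not given in the sources used here). The 2 arrays share a level, the mean over all but the extreme 2% at each end being 150.02 on both. The number of arrays limits the precision, and no test across replicates was possible.

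Gene names came from the platform annotation, with symbols updated by gene ID (19735 of 19775 genes matched the table of assembly GRCh38.p14). Of all probe sets, 41091 had 1 gene, 1801 several, 11721 none and 62 were controls, and only those with 1 gene were used. A gene took its brightest probe set by mean log2 intensity. Background was the 95th percentile of 217 probe sets of 176 genes of families assumed silent here (receptors for smell and taste, keratin-associated proteins, defensins and late cornified envelope proteins). Lower values were raised to it, so differences that involve them are bounds. The level differs between the arrays, so a gene under it on both has no difference.

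The members and gene lists were chosen with earlier results of these data known. Named genes were the isoforms and their paralogues, the 2 highest and 2 lowest members of each complex, members at least 1.5-fold apart or with probe sets over 2-fold apart, up to 3 genes at least 1.5-fold apart of each further list, and PPARGC1A, NRF1, TFAM and ESRRA. Other genes were named after their values were seen. NDUFA4 was counted in complex IV. Results were recomputed with quantile normalization, with lowess at a span of 0.4, with centring, rescaling on 18 hybridisation control probe sets, the mean of all probe sets, probe sets specific by name, no floor, a 99th percentile background, a pseudocount of 16 and a 1.5-fold threshold. The procedure was run on simulated data in which all probe sets of a changed gene shared the same change. That run does not test how disagreement between probe sets affects the results. Calculations ran in Python 3.11.15 with pandas 2.3.3, numpy 2.4.6 and, for lowess, statsmodels 0.14.6, and plots in matplotlib 3.10.9.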

Additional observations from a re-analysis of the deposited data

How the results depend on the processing

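Counts of members at least 2-fold higher in SB-OG depended on the processing. Against 1 as reported, the count was 2 with quantile normalization and with the lowess correction (COX6A2 and COX7B), 2 with probe sets specific by name (COX5A and COX6A2, among 37 members left), 3 with the mean of all probe sets (COX5A, COX6A2 and COX7B), 6 after rescaling on the hybridisation controls and 5 at 1.5-fold. Over all genes, 1440 of 12558 were at least 2-fold higher and 1765 lower with quantile normalization. The lowess correction gave 1508 and 1675 of 12558. Probe sets specific by name gave 1286 and 1197 of 9502, and the mean of all probe sets 1421 and 1512 of 12640. Members at least 2-fold lower numbered 1 (NDUFA7) except after the rescaling on hybridisation controls, where there were 0. The difference of NDUFA7 was then -0.85. The same rescaling gave medians of 0.60 for all members, 0.55 for complex I, 0.54 for complex II, 0.75 for complex III and 0.72 for complex IV, and 2.57 for COX6A2. It shifts every gene alike, so the members' median stayed 0.15 above that of all genes. That gap was 0.32 with quantile normalization and with probe sets specific by name, 0.31 with the lowess correction and 0.07 with the higher background level. Over all 12559 genes the rescaling gave 3020 at least 2-fold higher and 911 lower, against 1557 and 1633 as deposited. COX6A2 was at 2.68 without a floor and 1.40 with background at the 99th percentile, and its excess over COX6A1 was 2.90 and 1.61, since the control-OG value of COX6A2 is set by the floor. None of these medians, nor NDUFA7 or COX6A2, changed sign. Of the 50 members, 14 changed sign with the rescaling. The cause of the counts under quantile normalization, lowess and the other choices of probe set was not tested. Of 570 further values for single genes and lists, 103 moved by more than 0.47, the SD among probe sets for the same gene. The rescaling gave 65 of them. It adds 0.4698 to every value against a limit of 0.4670, so these 65 had to move. COX7A1 gave no value. No paired analysis was possible because each condition has 1 array. Signals near background, as for COX4I2, PPARGC1A and CKMT2, limit what can be read from them.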
